A study of Ovis aries with 14 samples.

Results

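ASIP, AHCY and ITCH are neighbouring genes of the sheep agouti locus, and their RNA was followed in ovaries of Suffolk sheep exposed to testosterone before birth and in controls. The 3 genes were chosen by name, with the difference of ASIP between the fetal groups already known. ASIP (ENSOARG00000009483) and ITCH (ENSOARG00000009759) are listed in each of the 3 tables used, which list 16513 genes for the fetuses, 15863 and 16074 for the adults and 17323 in all. AHCY is not listed by name in any of them and so was not measured here. The 14 samples were whole frozen ovaries of animals labelled wild type. At fetal day 90 there were 3 controls and 3 offspring of mothers injected with testosterone propionate from day 30 to day 90 of gestation, and at year 2 there were 4 controls and 4 such offspring. The labels give the dose both as 100 mg and as 1.2 mg/kg, do not say whether control mothers received the oil vehicle, and do not tie samples to mothers or litters, so the p-values reflect nothing beyond the spread among the samples sequenced.

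ASIP encodes agouti signalling protein, a secreted antagonist of melanocortin receptors that makes pigment cells of hair and wool switch from black or brown eumelanin to yellow or red pheomelanin. AHCY encodes the hydrolase that removes S-adenosylhomocysteine, the by-product of methylation reactions, and ITCH encodes a ubiquitin ligase of the NEDD4 family that limits T cell activation. The genes are also tied by their genetics: in white sheep a tandem duplication covers ASIP and AHCY and places a copy of ASIP behind the ITCH promoter, and the itchy mouse carries an inversion that breaks both agouti and Itch. The coat colour genotype of these sheep is not given, and counts per gene cannot tell copies of ASIP apart. In the RefSeq gene order the protein-coding genes run RALY, EIF2S2, ASIP, AHCY, ITCH, DYNLRB1, MAP1LC3A and PIGU.

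Values are normalized counts (a gene's reads after division by the library's size factor), and log2 changes are testosterone minus control on log2 of the normalized count plus 1. The reads behind them were 22.6 to 33.4 M per library. Each adult table holds 3 controls and 3 testosterone samples, with controls 4 and 6 and testosterone 5 and 6 in both, so the adult tables are not independent. For control 6 the adult tables hold 26.4 M and 33.4 M reads. Among the adults, control 6 and testosterone 4 and 7 stood apart with summed luteal marker levels of 8667, 9379 and 8460 RPM (a gene's reads scaled to the library's recovered total), against 278 to 406 in the other 5 libraries (8 of 9 markers listed, none at 0). Control 4 stood apart with 26413 RPM of smooth muscle markers, against 2594 to 9810 in the other 7.

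ASIP was the member that differed most between the fetal groups. The 3 fetal controls had 4257, 3780 and 5853 normalized counts, and the 3 testosterone fetuses 1997, 1840 and 1608. The lowest control thus lay above the highest testosterone library, and the testosterone libraries were also closer to each other. The means were 4630 ± 1085 and 1815 ± 196 (SD, n = 3 per group), a control mean 2.55-fold that after testosterone. On the log2 scale the difference was -1.33 (SE 0.16, 95% interval -1.71 to -0.96), and 80 of the 16513 genes tested were lower by more. The authors' deposited table gives a log2 fold change of -1.35 for it. ASIP was chosen for this contrast, so these values are a description without a test. The counts rest on 1703 to 5856 reads of ASIP per library.

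ITCH, the ubiquitin ligase gene on the other side of AHCY, had 1526, 1756 and 1525 normalized counts in fetal controls and 1357, 1486 and 1462 after testosterone. These groups did not overlap either, but by a narrow margin. The means were 1602 ± 133 and 1435 ± 68.8 (SD, n = 3 per group), with a log2 difference of -0.16 (SE 0.098, 95% interval -0.38 to 0.068) that did not pass the test (limma adjusted p = 0.632). Both listed members thus lay lower in all 3 testosterone fetuses, as did 7.46% of all genes, and the members were chosen with the ASIP contrast known. The interval for ITCH leaves out a change as large as that of ASIP.

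Within the same libraries the ratio of ASIP to ITCH, which does not depend on the size factors, separated the fetal groups. It was 2.79, 2.15 and 3.84 in controls and 1.47, 1.24 and 1.10 after testosterone. The mean log2 ratio was 1.51 ± 0.42 in controls and 0.33 ± 0.21 after testosterone (SD, n = 3 per group). ASIP was chosen for this contrast, so the separation follows from the ASIP values and is a description without a test. Counts are not scaled by transcript length, so the ratio is read only between libraries and not as a level of one gene against the other.

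**Figure D1:**
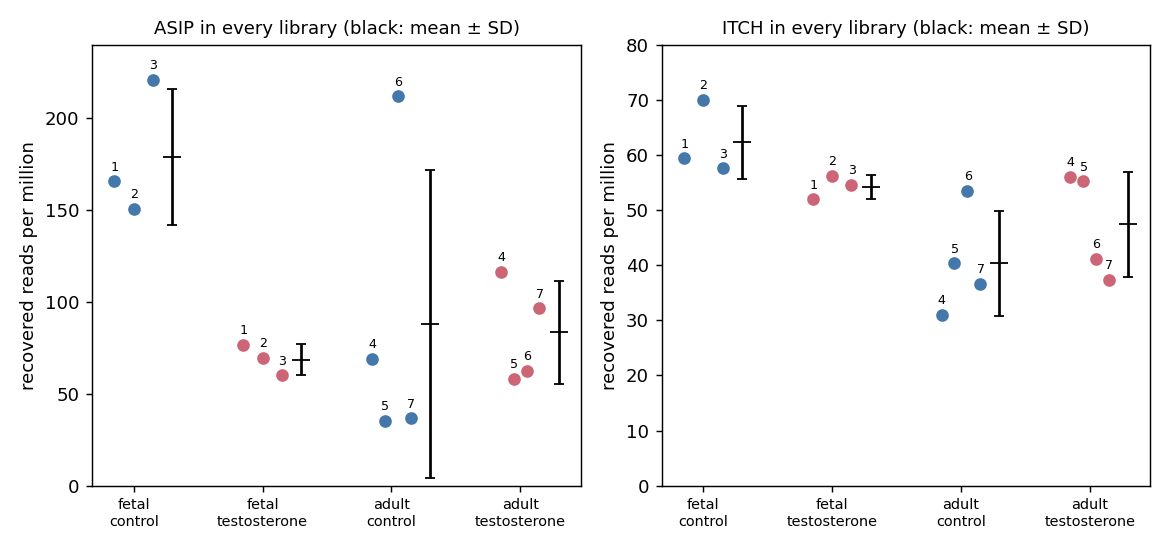
ASIP (left) and ITCH (right) in RPM (reads scaled to the library's recovered total) for each of the 14 libraries, with sample numbers beside the points and the group mean ± SD in black. ASIP in the fetal controls (150.5 to 221) lies above the testosterone fetuses (60.0 to 76.4), while in adults 1 control (212) lies far above the other 3 (35.4 to 68.9).

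In the adult ovary the ASIP groups overlapped, and the spread within them was wide. In the first adult table controls 4, 5 and 6 had 2271, 874 and 5785 normalized counts, and testosterone 4, 5 and 6 had 3167, 1388 and 1571. Control 6 was highest and control 5 lowest of all 6. The means were 2977 ± 2530 and 2042 ± 979 (SD, n = 3 per group), with a log2 difference of -0.24 (SE 0.69, 95% interval -1.89 to 1.40, limma adjusted p = 0.9999). In the second adult table controls 4, 6 and 7 had 2301, 5804 and 870, and testosterone 5, 6 and 7 had 1433, 1598 and 2558. Here too a control was highest and another lowest, and the log2 difference was -0.33 (SE 0.65, 95% interval -1.87 to 1.21, limma adjusted p = 0.9998). The intervals of both tables include 0 and also the fetal difference. Limma called 0.00631% of genes in the first table and 0.00623% in the second, DESeq2 0.0257% and 0.0318%, and edgeR 0% in both, and neither member was among them. Neither member separated the adult groups fully, as 3.57% and 2.61% of genes did. The within-group SD of ASIP on the log2 scale was 1.06 and 1.02 in the adult tables, against a median over all genes of 0.47 and 0.54, and 0.26 against 0.19 in the fetuses.

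ITCH varied less among the adults. In the first adult table it had 1023, 996 and 1444 in controls 4, 5 and 6 and 1522, 1321 and 1030 in testosterone 4, 5 and 6. In the second it had 1037, 1465 and 869 in controls 4, 6 and 7 and 1364, 1048 and 991 in testosterone 5, 6 and 7. The groups overlapped in both tables. The log2 differences were 0.16 (SE 0.25, 95% interval -0.44 to 0.77, limma adjusted p = 0.9999) and 0.034 (SE 0.28, 95% interval -0.64 to 0.71, limma adjusted p = 0.9998). The ratio of ASIP to ITCH ran from 0.878 to 4.005 in adult controls and from 1.05 to 2.58 in testosterone adults.

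All 8 adult libraries can be set side by side in RPM. ASIP stood at 68.9, 35.4, 212 and 36.6 in controls 4 to 7 and at 117, 58.0, 62.7 and 96.5 in testosterone 4 to 7. Controls 5 and 7 lay below all testosterone libraries, control 4 between the lower and the upper pair, and control 6 above all of them. The mean log2 difference was 0.27, higher in testosterone, with p = 0.771 in a two-sided exact permutation test (n = 4 per group, adjusted p over the 2 listed members 0.771, smallest p the design allows 0.0286). The sign thus differs from that of the tables of 6, and it rests on single libraries. Without control 6 the difference was 0.82 (exact permutation p = 0.143), and without control 5 it was -0.026. ITCH stood at 31.1, 40.3, 53.4 and 36.6 in controls and at 56.0, 55.2, 41.1 and 37.4 after testosterone, a mean log2 difference of 0.23 (exact permutation p = 0.257, adjusted 0.514).

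ASIP followed the luteal split among the adults, though not the order of luteal levels within either part. This pattern was noted after the values were seen and left without a test. The 3 libraries high in luteal markers were also the 3 highest in ASIP, at 96.5 to 212 RPM against 35.4 to 68.9 in the other 5. The share of all genes that split these libraries the same way was not counted, so the split cannot be called particular to ASIP. Among these 3, the control (212) lay above both testosterone libraries (117 and 96.5), and among the other 5 the controls (35.4 to 68.9) overlapped the testosterone pair (58.0 and 62.7). Macrophage markers followed the same split, at 1519 to 1620 RPM in the 3 libraries and 123 to 405 in the rest (10 of 10 markers listed, none at 0), whereas smooth muscle markers were lowest in the 3. With the luteal list as a covariate, the log2 difference of ASIP over the 8 libraries was -0.14 (SE 0.36), against 0.21 (SE 0.60) without it. What luteal tissue or macrophages contribute to adult ASIP was not tested. In whole ovary, fewer cells of a type and less RNA per cell cannot be told apart.

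**Figure D2:**
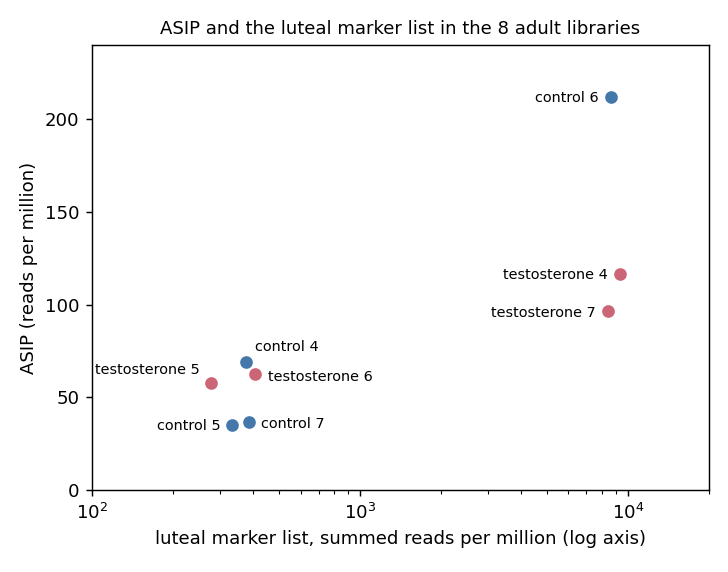
ASIP in RPM against the summed RPM of the listed luteal markers (log axis) in the 8 adult libraries, controls in blue and testosterone in red. Control 6 and testosterone 4 and 7 lie apart at 8460 to 9379 RPM of luteal markers and have the 3 highest ASIP values.

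Across ages, levels can be compared only in RPM, since the tables were normalized separately and age and table cannot be told apart. Group means of ASIP were 179 ± 37.1 in fetal controls, 88.2 ± 83.9 in adult controls, 83.4 ± 28.0 in testosterone adults and 68.7 ± 8.25 in testosterone fetuses (SD, n = 3 per fetal and 4 per adult group). Fetal controls (150.5 to 221) overlapped adult controls (35.4 to 212) through control 6 alone, and the 3 lower groups all overlapped each other. ITCH was ordered otherwise, at 62.3 ± 6.67 in fetal controls, 54.2 ± 2.12 in testosterone fetuses, 47.4 ± 9.58 in testosterone adults and 40.4 ± 9.52 in adult controls. Fetal controls (57.6 to 69.9) and adult controls (31.1 to 53.4) did not overlap in ITCH, as was so for 42.3% of genes. Whether the testosterone difference of ASIP itself differs between ages was not tested.

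Other cell types were compared between the fetal groups through summed marker levels in RPM. Smooth muscle markers did not overlap, but by a very narrow margin, at 1683 to 2192.6 in controls and 2193.1 to 3287 after testosterone (8 of 9 listed). Luteal markers, here mostly genes of steroid synthesis and cholesterol handling, did not overlap either, at 191 to 205 and 164 to 178 (8 of 9 listed). Taken singly, 16.3% of all genes had fetal groups without overlap. Theca and steroidogenic markers, a list that shares most of its genes with the luteal list, overlapped at 192 to 233 and 183 to 193 (8 of 9 listed). The endothelium, macrophage, surface epithelium, mesonephros, adipose and adrenal lists also overlapped. Stroma and mesenchyme markers overlapped, at 11783 to 15286 and 15035 to 18576 (9 of 10 listed), as did germ cell markers, at 478 to 711 and 354 to 545 (8 of 13 listed), and granulosa markers, at 263 to 301 and 251 to 298 (8 of 13 listed). No listed marker was at 0. The part of these marker differences in the fetal ASIP values was not tested.

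Of the genes that act with agouti, CORIN differed most. CORIN encodes a membrane protease that in mouse skin acts downstream of agouti to suppress its effect on pigment. It had 707, 1070 and 801 normalized counts in fetal controls and 4145, 2905 and 3876 after testosterone. The groups lay far apart and in the direction opposite to ASIP, with a log2 change of 2.09 (SE 0.18, limma adjusted p = 0.0218). The list that holds CORIN was drawn up with earlier results of these data known. The opposition of CORIN to ASIP is therefore a description, and the p-value does not account for that choice. No gene of the table passed limma without control 1, testosterone 1 or testosterone 2. In the first adult table CORIN had 282, 303 and 99.4 in controls 4, 5 and 6 and 426, 1177 and 735 in testosterone 4, 5 and 6, again without overlap, but the log2 difference of 1.81 (SE 0.56) did not pass (limma adjusted p = 0.9999). In the second adult table testosterone 7, at 171, lay within the controls, and over the 8 adult libraries the log2 difference was 1.24 (SE 0.62, limma adjusted p = 0.9999).

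**Figure D3:**
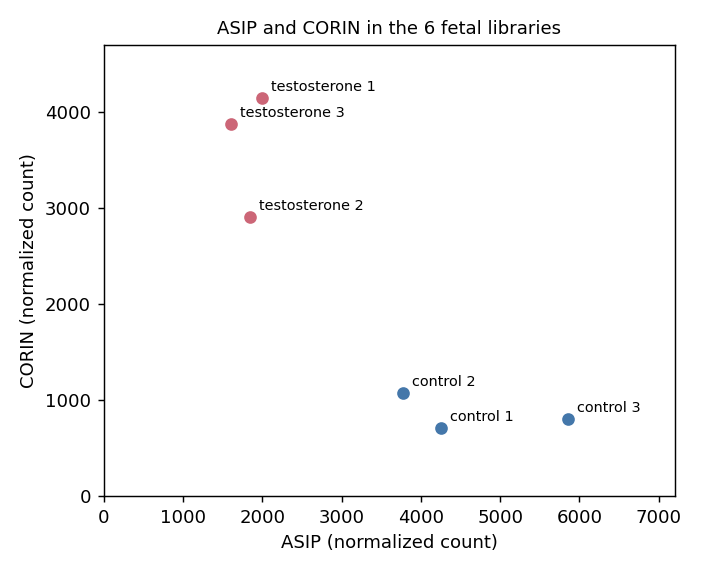
CORIN against ASIP in normalized counts in the 6 fetal libraries, controls in blue and testosterone in red. Controls lie at high ASIP (3780 to 5853) and low CORIN (707 to 1070), testosterone libraries at low ASIP (1608 to 1997) and high CORIN (2905 to 4145).

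Attractin and mahogunin, encoded by ATRN and MGRN1, are needed for agouti to act on pigment cells. ATRN had 1709, 1794 and 1690 in fetal controls and 1280, 1630 and 1556 after testosterone. The groups did not overlap, and the log2 difference of -0.22 (SE 0.11) did not pass (limma adjusted p = 0.557). MGRN1 had means of 2756 and 2725 (log2 difference -0.016, SE 0.087), and ATRNL1, a relative of ATRN, 1333 and 1181 (log2 difference -0.20, SE 0.19).

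Of the melanocortin receptors, MC1R, the receptor that agouti blocks in pigment cells, was near the low end of what was listed, at 6.41 to 16.0 in the 6 fetuses and 4.69 to 45.9 in the adult tables. MC5R is listed only for adults, where it reached 77.7 and 80.2 in testosterone 5 in the first and second table and was at 0 in control 6. Its groups overlapped in both tables. In the first the MC5R means were 18.8 ± 30.6 in controls and 33.4 ± 39.5 after testosterone (SD, limma adjusted p = 0.9999). MC2R, MC3R, MC4R, the accessory protein gene MRAP and the agouti relative AGRP are not listed by name. MRAP2, an accessory protein of melanocortin receptors, had 159, 108 and 164 in fetal controls and 247, 266 and 175 after testosterone. Those groups did not overlap, and the log2 difference of 0.67 (SE 0.24) did not pass (limma adjusted p = 0.442).

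POMC, the precursor of the melanocortins themselves, had 42.7, 49.9 and 28.0 in fetal controls and 48.0, 84.1 and 62.3 after testosterone, overlapping groups (limma adjusted p = 0.548). In the adults POMC had its 3 highest values in the 3 libraries high in luteal markers, at 147 in control 6 and 393 in testosterone 4 of the first table and 180 in testosterone 7 of the second, against 9.14 to 51.1 elsewhere. PCSK1, a protease that cuts POMC and other prohormones, stood at 14118 and 8487 in control 6 and testosterone 4 and at 6113 in testosterone 7, against 25.8 to 653 elsewhere in the adults. The share of all genes that split the adults as POMC and PCSK1 did was not counted. In the fetuses PCSK1 averaged 977 in controls and 754 in the testosterone group, without overlap (log2 difference -0.37, limma adjusted p = 0.4495).

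Counted as a list, the agouti and melanocortin genes other than ASIP went both ways. Of 25 named genes, 18 were tested in each table. In the fetuses 8 were higher and 10 lower in mean log2 value, with a median difference of -0.022 against -0.019 over all genes. Of them 1 (CORIN) passed limma, DESeq2 and edgeR. Over all genes limma called 0.0182%, DESeq2 1.76% and edgeR 0.0242% in either direction. An unadjusted limma p under 0.05 was found for 3 of the 18 (CORIN, MRAP2 and PCSK1), against 9.76% of all genes, and the groups did not overlap for 2 on the lower and 3 on the higher side, against 16.3%. In the adult tables the medians were -0.10 and -0.11 against -0.011 and -0.0074 over all genes. None passed limma, edgeR or DESeq2 there, and 1 (CORIN, first table) and 0 had an unadjusted limma p under 0.05, against 0.637% and 0.486% of all genes. After CORIN the smallest p in the adult tables belonged to PRKACA, a catalytic subunit of protein kinase A, in the first (log2 difference -0.498) and to MC5R in the second (1.87).

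Pigment cell genes gave no called change. Of 17 named genes 12 were tested in each table, and none passed limma, DESeq2 or edgeR. EDNRB, the endothelin receptor of pigment cell precursors, was the 1 of 12 with an unadjusted limma p under 0.05 in the fetuses, where 9.76% of all genes had one. Its means were 320 and 463 (log2 difference 0.51, limma adjusted p = 0.471). No pigment gene had an unadjusted limma p under 0.05 in the adults, against 0.637% and 0.486% of all genes. PMEL, which builds melanosome fibrils, had 232 to 299 in the 6 fetuses, while TYRP1, DCT and MLANA are not listed by name. TYR, the enzyme that starts melanin synthesis, is listed only for adults. It was higher in the libraries high in luteal markers, at 41.0 in control 6, 73.2 in testosterone 4 and 50.1 in testosterone 7, against 0 to 10.4 in the other 5. Some other pigment genes did not follow that order, and the share of all genes that did was not counted. In the first adult table SOX10 and EDNRB were highest in control 4 (662 and 960) and PMEL in testosterone 5 (1061), both libraries low in luteal markers. GPR143, a melanosome receptor, averaged 29.9 in controls and 59.3 in testosterone samples of the first adult table (log2 difference 0.89, limma adjusted p = 0.9999).

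None of the chromosomal neighbours of ASIP passed the test in the fetuses. RALY, an RNA-binding protein gene whose deletion puts agouti under a foreign promoter in the lethal yellow mouse, had fetal means of 8704 and 9670 (log2 difference 0.15, SE 0.096). EIF2S2, a translation initiation factor gene directly beside ASIP, had 3634 and 3884 (log2 difference 0.097, SE 0.082). Beyond ITCH, the dynein light chain gene DYNLRB1 had 1255 ± 8.62 and 1500 ± 85.1 (log2 difference 0.26, limma adjusted p = 0.436), the autophagy gene MAP1LC3A had 1041 ± 29.7 and 1192 ± 131 (0.19), and PIGU, a subunit gene of the enzyme that attaches GPI anchors, had 2194 and 2289 (0.061). The fetal log2 differences of RALY, EIF2S2, DYNLRB1 and MAP1LC3A were thus above 0, as were those of 46.6% of all genes. ITCH, which lies between ASIP and DYNLRB1, was lower in mean. None of these neighbours passed the test.

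Over 15 listed protein-coding genes on each side of ASIP, 29 without ITCH were tested in the fetuses. Of these 13 were higher and 16 lower in mean log2 value. The median log2 difference was -0.019, the same as over all genes, and the range ran from -0.78 (FAM83C) to 0.26 (DYNLRB1). None passed limma, DESeq2 or edgeR, and 6 had an unadjusted limma p under 0.05, against 9.76% of all genes. The 6 lay on both sides of 0. ACSS2, which makes acetyl-CoA from acetate, had 1107, 1247 and 1154 in controls and 925, 797 and 954 after testosterone (log2 difference -0.39, limma adjusted p = 0.333), and GGT7 (-0.48) and MYH7B (-0.40) were also lower, while CHMP4B (0.24), DYNLRB1 (0.26) and EDEM2 (0.24) were higher. The groups did not overlap in 4 of the 29 on the lower and 4 on the higher side, against 16.3% of all genes on either side. In a list of 26 neighbours drawn up by name, 23 were tested, 6 had an unadjusted p under 0.05 and none passed limma, DESeq2 or edgeR, while the log2 differences ran from -1.21 to 0.26. The lowest was GDF5, a growth factor gene of the BMP family with few reads, with means of 16.3 and 7.81 without overlap and a 95% interval of -2.61 to 0.19 that includes the ASIP value.

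In the adults none of 28 neighbours tested in each table passed limma, DESeq2 or edgeR. The medians were -0.048 and -0.098, against -0.011 and -0.0074 over all genes. With an unadjusted limma p under 0.05 there were 0 in the first table and 1 in the second, against 0.637% and 0.486% of all genes. The 1 was GGT7, with means of 171 and 304 (log2 difference 0.81), the direction opposite to that in the fetuses. RALY had the smallest p of the neighbours in the first table, at 8263 ± 877 in controls and 6553 ± 316 after testosterone (log2 difference -0.33, limma adjusted p = 0.9999). Its groups did not overlap, as was so for 3.57% of all genes in that table.

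**Figure D4:**
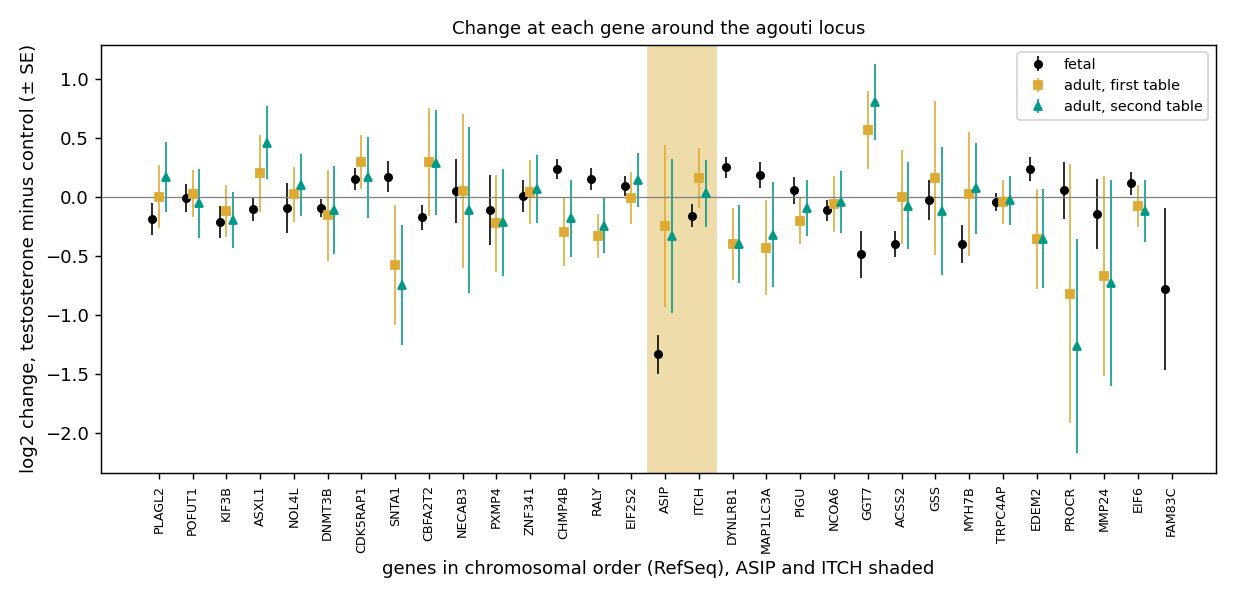
Log2 difference, testosterone minus control, ± SE for ASIP, ITCH (shaded) and the listed protein-coding genes around them in chromosomal order, in the fetal table (black) and both adult tables (yellow, green). In the fetuses ASIP lies at -1.33 while the neighbours plotted lie between -0.78 and 0.26, and the adult error bars are wider.

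AHCY itself was not measured, and the genes around its reaction gave no called change. AHCYL1 and AHCYL2, which encode relatives of AHCY that regulate calcium and ion transport proteins, had fetal means of 3112 and 2772 (log2 difference -0.17, SE 0.11) and of 678 and 670 (-0.034, SE 0.15). MAT2A, which makes the methyl donor S-adenosylmethionine, had 4456 and 4973 (0.16, SE 0.15), and ADK, the kinase that removes the adenosine AHCY releases, had 623 and 665 (0.099, SE 0.14). Of 24 genes of the methionine cycle and of methyl transfer, 19 were tested in each table, and none passed limma, DESeq2 or edgeR. In the fetuses 9 were higher and 10 lower in mean log2 value, with a median difference of -0.0094. Of them 1 had an unadjusted limma p under 0.05, against 9.76% of all genes. This was MTR, methionine synthase, with means of 1168 and 949 (log2 difference -0.30, limma adjusted p = 0.471). Its partner MTRR, which reactivates it, had 760 and 649 (-0.23), and PEMT, which methylates phosphatidylethanolamine, had 439 and 522 (0.25). In the adult tables the medians were 0.033 and 0.026, against -0.011 and -0.0074 over all genes. None had an unadjusted limma p under 0.05 there, against 0.637% and 0.486% of all genes.

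For ITCH, its adaptors, targets and sister ligases formed the list. NDFIP1 and NDFIP2 encode membrane adaptors that activate ITCH. NDFIP1 had fetal means of 3154 and 3355 (log2 difference 0.088, SE 0.089), and NDFIP2 had 845 and 717 without overlap (-0.24, SE 0.12, limma adjusted p = 0.552). Of 25 genes 22 were tested in the fetuses, 6 higher and 16 lower in mean log2 value, where 46.6% of all genes were higher. The median was -0.14 against -0.019 over all genes, and none passed limma, DESeq2 or edgeR. An unadjusted limma p under 0.05 was found for 1, against 9.76% of all genes. The groups did not overlap for 4 on the lower and 0 on the higher side, against 16.3% of all genes on either side. The sister ligase SMURF1, which targets receptors of the TGF-beta family, had the smallest p, with means of 1810 and 1362 (-0.41, limma adjusted p = 0.465). Among the adults 21 were tested per table, the medians were -0.18 and -0.13 against -0.011 and -0.0074 over all genes, and none passed. TP73, a p53 relative that ITCH degrades, was the only one with an unadjusted limma p under 0.05 and only in the first table. Over all genes 0.637% had one in the first table and 0.486% in the second. The means of TP73 there were 42.3 and 11.2 in the first table (log2 difference -1.82).

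Likeness to ASIP was measured as Pearson's r of log2 values across the libraries of a table, among named genes with a mean of at least 100. It is a description without a test, since the fetal points fall into the 2 treatment groups and the adult points into libraries high and low in luteal markers. Over the 6 fetal libraries and 10467 genes the most alike were UBQLN1 (r = 0.992), B3GALT1, SLC1A5, CAB39 and GNA14 (r = 0.975), and the most opposite were GDF10 (r = -0.988), PRXL2A, LRRN1, POLR2G and CCDC71 (r = -0.980). The log2 differences of the 5 most alike ran from -0.18 in CAB39 to -0.63 in GNA14, smaller than that of ASIP. LRRN1, a leucine-rich repeat membrane protein gene, went the other way with means of 737 and 2565 (1.91), and GDF10, a growth factor gene of the BMP family, with 66.2 and 200 (1.64). ITCH was far from these, at r = 0.525, with 82.8% of genes lower.

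In the first adult table the genes most like ASIP included SMPD3 (r = 0.992), ATP6, PPIP5K1 and LRIG1 (r = 0.983), and the most opposite MSX1 (r = -0.992), DNAJC9, PIM1, RAD54L and MB21D2 (r = -0.985), over 6 libraries. In the second they were DIRC2 (r = 0.995), TGIF2-RAB5IF, CMTM6, the ITCH adaptor gene NDFIP1 (r = 0.992) and HEBP1 (r = 0.990), and the most opposite ARMC4 (r = -0.993), PBX2, TONSL, TOP3A and OFD1 (r = -0.987). No gene given here is named for both tables, which share 4 libraries, or for a fetal and an adult table. ITCH had r = 0.677 over the 8 adult libraries, with 82.6% of genes lower. Other close neighbours of ASIP went both ways over these libraries, with r = 0.87 for MAP1LC3A, 0.74 for DYNLRB1, 0.071 for RALY and -0.75 for EIF2S2.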

How the data were processed

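Whole ovary RNA of 14 sheep was made into libraries from 500 ng with a kit for paired reads of 150 bases, per the labels' protocols. The submitters' processing notes name Trimmomatic 0.36 and STAR 2.5.2b. Not given in the sources used here are the counting program, genome build, annotation and use of strand, so overlapping and antisense genes may share reads.

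The authors deposited 3 tables of signal, which from the design text and the values are DESeq2 normalized counts, beside their own log2 fold change and its p-value, raw and adjusted. Dividing by each library's smallest step gave whole reads (100% of values, tolerance 0.01), 22.6 to 33.4 M per library. The design text counts 3 adult controls and 4 treated, while the labels list 4 and 4.

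Each table was fitted with limma 3.58.1 in R 4.3.3 (trended variance, log2(value + 1), genes averaging 10 or more), and p-values were adjusted over all its genes by Benjamini-Hochberg at 0.05. DESeq2 1.42.0 and edgeR 4.0.16 (quasi-likelihood) ran on the recovered reads. Scripts were tested on simulated data. Over all 8 adult libraries, log2(RPM + 1) was compared by a two-sided exact permutation test, with control 6 from the second table.

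Members and gene lists were chosen with earlier results of these data known. Named are the members, genes next to them, direct agouti and melanocortin genes, AHCY relatives and ITCH adaptors, each list's genes past the threshold or of smallest p, the 5 most and least alike genes per table (1 of which is not reported here), and summed cell type markers. Not all genes of smallest p in the adult tables are printed. TYR, SOX10, FAM83C, GDF5 in the fetuses, and the adult values of PCSK1, PMEL and EDNRB were named after their values were seen. So were the genes with an unadjusted p under 0.05 beyond 4 in a list. Chromosomal order came from RefSeq (assembly ARS-UI_Ramb_v3.0), and no coordinates were used, since the build may differ. Alternatives were other pseudocounts, filters, scaling, DESeq2, edgeR, the sample number as a block, the 8 adult libraries joined, and leaving out each library.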

Additional observations from a re-analysis of the deposited data

Results flagged for a closer look

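Among 42 checks of a gene's RPM (reads scaled to the library's recovered total) in a group of 4 adults, 2 had 1 library far from the other 3 by Dixon's criterion, where chance gives about 1 in 20. Both were in adult control 6, the library that was also highest in ASIP and among the 3 high in luteal markers. AHCYL2, a relative of AHCY, stood at 27.74 RPM there and at 12.77 to 14.93 in the other controls. NDFIP1, the adaptor gene of ITCH, stood at 131.2 there and at 85.35 to 87.38 in the other controls.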

How the results depend on the processing

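In the fetuses the log2 difference of ASIP stayed between -1.46 and -1.15 and that of ITCH between -0.19 and -0.090 over all 14 alternatives each, with the lowest and highest values when 1 library was left out, and ITCH passed in none (adjusted p 0.535 to 0.868). ITCH in the first adult table stayed between 0.036 and 0.34. The adult difference of ASIP turned positive when the 8 libraries were joined (0.21 for either table) and when control 6 was left out (0.43 and 0.35). Leaving out 1 library gave -0.93 to 0.43 in the first table, -1.02 to 0.35 in the second, and -0.026 to 0.82 over the 8 libraries, where it was below 0 without control 5 (-0.026) or control 7 (-0.0096). ITCH in the second adult table was -0.15 with the replicate block and -0.13 to 0.24 with 1 library left out, below 0 without control 4 (-0.0069), control 7 (-0.13) or testosterone 5 (-0.11), and over the 8 libraries it was 0.12 to 0.37. Adjusted p of the members in the adult tables ran from 0.625 to 1. The sample numbers did not pair the libraries (correlations of same-numbered deviations 0.13, 0.0093 and 0.40 in the fetuses, -0.15, 0.33 and -0.48 in the first adult table and -0.46 and -0.34 in the second). With the replicate block the fetal differences were -1.33 for ASIP and -0.16 for ITCH, and the genes called in the fetal, first and second adult table were 10 (5 higher, 5 lower), 0 and 0 (1922, 192 and 39 at an unadjusted p under 0.05), against 3, 1 and 1 with limma without it. In the second adult table numbers 4 and 5 occur once each, so those libraries add nothing to the blocked difference. DESeq2 called 262 (178 higher, 84 lower), 4 and 5, and edgeR 0 in both adult tables (188 and 181 at an unadjusted p under 0.05). Joined adult libraries gave 2 with or without the luteal list as covariate. Leaving out 1 library gave 0 to 13 in the fetal table and 0 in both adult tables (20 to 1325 at an unadjusted p under 0.05). The causes were not tested. Alternatives for AHCY, and a ratio of ASIP to AHCY, were not run, because AHCY is not listed by name.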
